A study of Mus musculus with 8 samples.

Results

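Kinases, phospholipases, exchange factors, lipid kinases, coreceptors, inhibitory receptors and adaptors that act downstream of the B-cell receptor were examined in mouse pro-B cells with and without menin. The set holds 36 genes, and every probe set that the platform annotation assigns to 1 of them alone was taken. Such probe sets were found for 35 of the 36, in 89 probe sets, out of 18193 genes named on the array. Lyn is not analysed here. The rule names the genes and sets no threshold on a measured value.

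The comparison concerned pro-B cells of Fraction B, which the labels define by B220, CD43 and HSA on the surface and by the lack of BP-1. They were sorted from the bone marrow of mice aged 2 to 3 weeks (3 weeks in the design text). All 8 mice were MenF/F, that is, they carried a floxed Men1 gene. The 4 control mice had no Cre, and the 4 menin-deficient mice were Rag1-cre;MenF/F. Each mouse gave 1 Affymetrix mouse genome expression array. Every menin-deficient mouse and no control carried Cre, so menin loss and the Cre allele cannot be told apart. By Xist and Eif2s3y, 1 control and 2 menin-deficient mice were male.

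The B-cell receptor signals through a relay. Src-family kinases phosphorylate the receptor tails, a scaffold recruits phospholipase C gamma, and its products release calcium and activate protein kinase C, RasGRP and, through Bcl10 and Malt1, NF-kB. In parallel, PI3K makes the membrane lipid that recruits further kinases and adaptors. Coreceptors such as CD21 and CD81 strengthen the signal, while CD22, CD72 and the phosphatases SHP-1 and SHIP-1 restrain it. Pro-B cells have not yet assembled a complete receptor, but already express most of this machinery, which the pre-B-cell receptor then uses. Menin is a chromatin protein that works with the MLL histone methyltransferases.

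The deposited log2 values ran from 2.08, a lowest value shared by 36.1% to 36.7% of probe sets on each array, to 17.4. Arrays correlated at 0.991 to 0.996 within groups and at 0.985 to 0.991 between groups over the tested genes. Men1 fell by 1.39 on the log2 scale in menin-deficient arrays (SE 0.18, limma adjusted p = 0.00391), from 9.54 ± 0.26 to 8.15 ± 0.28 (SD, n = 4 each). Markers of the B-cell progenitor were present on every array, and their summed level was 197.2 to 199.5 in control and 199.3 to 200.7 in menin-deficient arrays (14 genes). Of these 14 genes Igll1, Dntt and Blnk were higher and Rag1 was lower, where 16.2% of all tested genes were higher and 5.17% lower. Enpep, which encodes BP-1 and was selected against in the sort, read 10.63 to 11.75 in control and 10.44 to 12.17 in menin-deficient arrays. Of the granule genes of neutrophil precursors, Camp read 12.40 to 13.31 in control and 13.09 to 13.59 in menin-deficient arrays. Mpo read 11.80 to 12.64 and 12.10 to 12.99, Ctsg 12.11 to 13.28 and 12.51 to 13.43, and Prtn3 11.65 to 12.87 and 11.33 to 12.90. Elane read 7.27 to 8.49 and 7.35 to 8.68, and Mmp8 2.08 to 3.82 and 2.61 to 4.94. Prtn3 differed by -0.08 and S100a8 by -0.12, and the other tested neutrophil markers had differences above 0. None of them passed the threshold.

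Of the 35 tested members, 5 were higher and 2 lower in menin-deficient cells at a limma adjusted p under 0.05, and 28 did not pass. Higher were Prkch, Fyn, Prkcd, Plcg1 and Cd81, and lower were Cblb and Pik3r1. The share of members called, 20.0%, lay near that of all 11885 tested genes, of which 21.3% were called, 16.2% higher and 5.17% lower. The median difference was 0.13 over the members and 0.11 over all tested genes. The groups did not overlap for 9 members, against 26.3% of all tested genes. In bulk RNA, fewer cells of a type and less RNA per cell cannot be told apart.

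Scaling ended the calls of Cd81 and Plcg1 and added that of Cd22. When the median tested gene of every array was set to the same value, all differences dropped by 0.13. After this centring 3 members were higher (Prkch, Fyn and Prkcd) and 3 lower (Cblb, Pik3r1 and Cd22), with 7.67% and 8.17% of all tested genes higher and lower. Cd81 and Plcg1 then missed the threshold (adjusted p = 0.0577 and 0.0941).

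**Figure D1:**
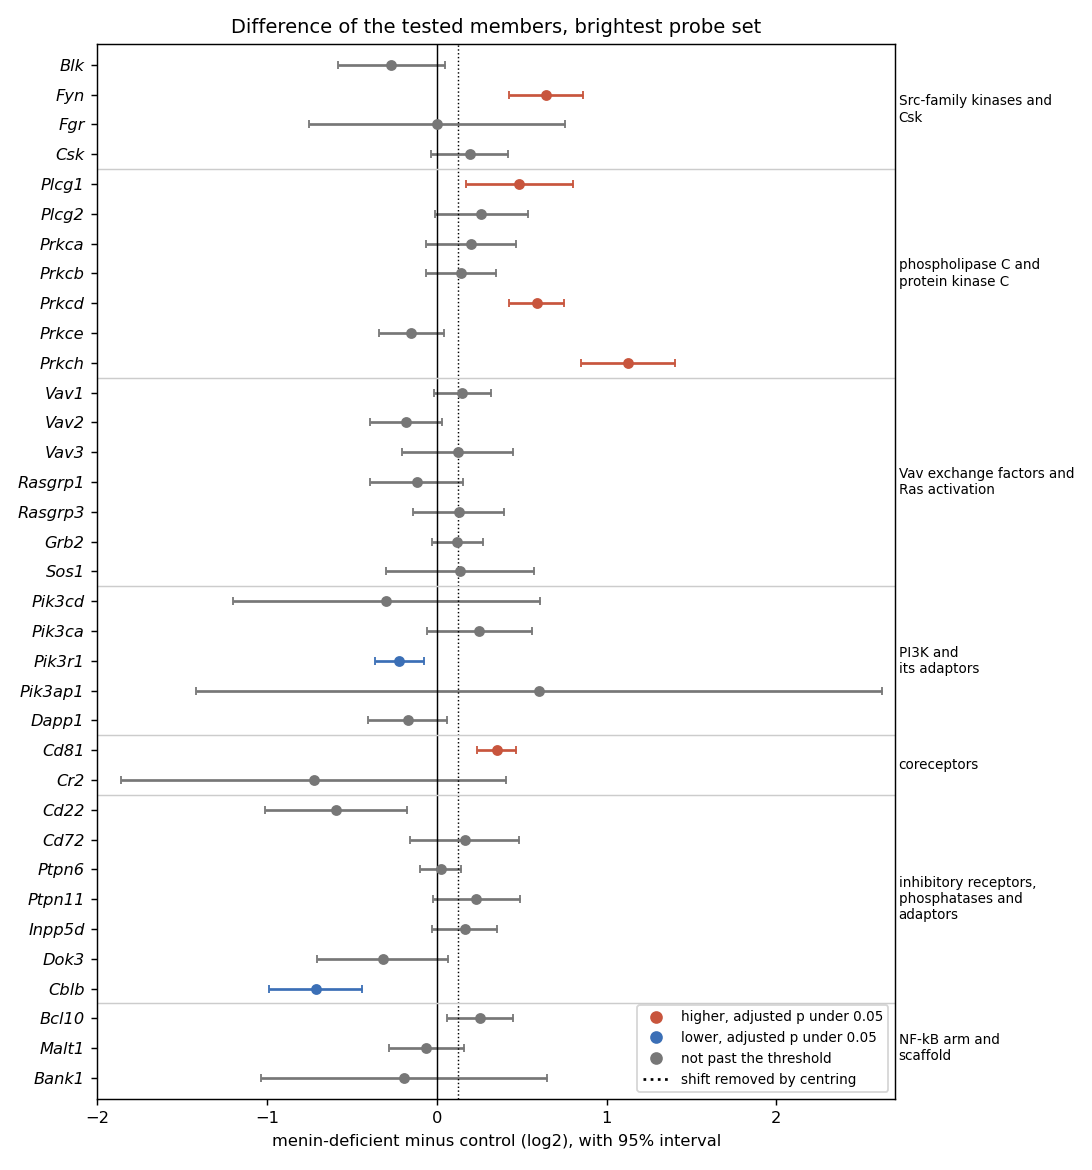
Difference between menin-deficient and control arrays (log2, horizontal axis) for the brightest probe set of each of the 35 tested members, grouped by role, with 95% limma intervals from 4 arrays per group; the dotted line marks the shift of 0.13 that centring removes. Prkch lies farthest to the right among called members at 1.13 and Cblb farthest to the left at -0.71, while Pik3ap1 has the widest interval, from -1.42 to 2.62.

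Among the Src-family kinases, which start signalling by phosphorylating the receptor, Fyn was the member that passed the threshold. Its brightest probe set gave 11.49, 11.39, 11.65 and 11.67 on the control arrays, in replicate order, and 12.35, 12.25, 12.13 and 12.04 on the menin-deficient arrays. Every menin-deficient array lay above every control array. The difference was 0.64 (SE 0.09, 1.56-fold, limma adjusted p = 0.00557), and 0.52 after centring. The second Fyn probe set, tied by the platform annotation to the same transcript record, differed by 0.19 with overlapping groups (adjusted p = 0.198 with each probe set tested on its own).

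Blk, the Src-family kinase most restricted to B cells, read 13.02 to 13.46 in control and 12.70 to 13.17 in menin-deficient arrays, which overlap. Its difference was -0.27 (95% interval -0.58 to 0.05). Csk, the kinase that holds Src-family kinases inactive, differed by 0.19 (-0.03 to 0.42), and by 0.07 after centring. It was called under 1 of 19 alternatives, without menin-deficient replicate 1 (0.29, limma adjusted p = 0.0189). Fgr, a Src-family kinase of myeloid cells, differed by 0.00 on a dim probe set (4.46 to 5.82 in control arrays). The other Fgr probe set sat at the lowest value on all 4 control arrays and at 2.11 to 2.36 on menin-deficient arrays. It passed the filter through the menin-deficient arrays alone.

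The phospholipase C and protein kinase C group held 3 of the 5 rises, among its 7 genes, against 16.2% of all tested genes. After centring 2 of the 7 were higher. Prkch, which encodes protein kinase C eta, rose most of all members. On its brightest probe set control replicates 1 to 4 read 8.94, 9.02, 9.49 and 9.03, and menin-deficient replicates 10.25, 10.26, 10.24 and 10.24. The menin-deficient arrays lay close together, well above the highest control. The difference was 1.13 (SE 0.12, 2.18-fold, limma adjusted p = 0.0023), and 1.00 after centring. A second Prkch probe set, tied to another transcript record, rose by 1.42 (SE 0.15, adjusted p = 0.00307 with each probe set tested on its own), with 8.10 to 8.73 in control and 9.68 to 10.03 in menin-deficient arrays. Both probe sets thus placed the groups apart in the same direction.

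Prkcd encodes protein kinase C delta, which in B cells is known for a part in tolerance. Control arrays read 12.83, 12.67, 12.79 and 12.94, and menin-deficient arrays 13.30, 13.46, 13.46 and 13.35. The groups did not overlap, with a difference of 0.59 (SE 0.07, limma adjusted p = 0.0032). Its second probe set did not follow: it read 9.73 to 10.19 in control and 9.21 to 10.54 in menin-deficient arrays and differed by -0.02. With the mean of both probe sets Prkcd was not called (0.28, adjusted p = 0.227).

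Plcg1, 1 of the 2 phospholipase C gamma enzymes, read 13.40, 13.68, 13.82 and 13.48 in control and 14.06, 13.89, 14.39 and 13.99 in menin-deficient arrays. The lowest menin-deficient array lay just above the highest control. The difference of 0.49 (SE 0.13, 1.40-fold, limma adjusted p = 0.0427) kept its call under 8 of 19 alternatives, and under 1 of the 8 that left out 1 array. The 2 other Plcg1 probe sets read 2.08 throughout and were not tested. Plcg2, the isoform that B cells mainly rely on, was 13.06 to 13.35 in control and 13.18 to 13.67 in menin-deficient arrays (difference 0.26, 95% interval -0.01 to 0.54).

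The other protein kinase C genes did not pass on their brightest probe sets. Prkcb, whose product carries the NF-kB signal of the receptor, differed by 0.14 (-0.07 to 0.35), Prkca by 0.20 (-0.06 to 0.47) and Prkce by -0.15 (-0.34 to 0.04). A dim Prkce probe set read 3.54 to 4.36 in control and 3.15 to 3.64 in menin-deficient arrays (-0.66, adjusted p = 0.0604 with each probe set tested on its own). With the mean of its tested probe sets Prkce was called lower (-0.40, limma adjusted p = 0.01), which was its 1 call under 19 alternatives.

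**Figure D2:**
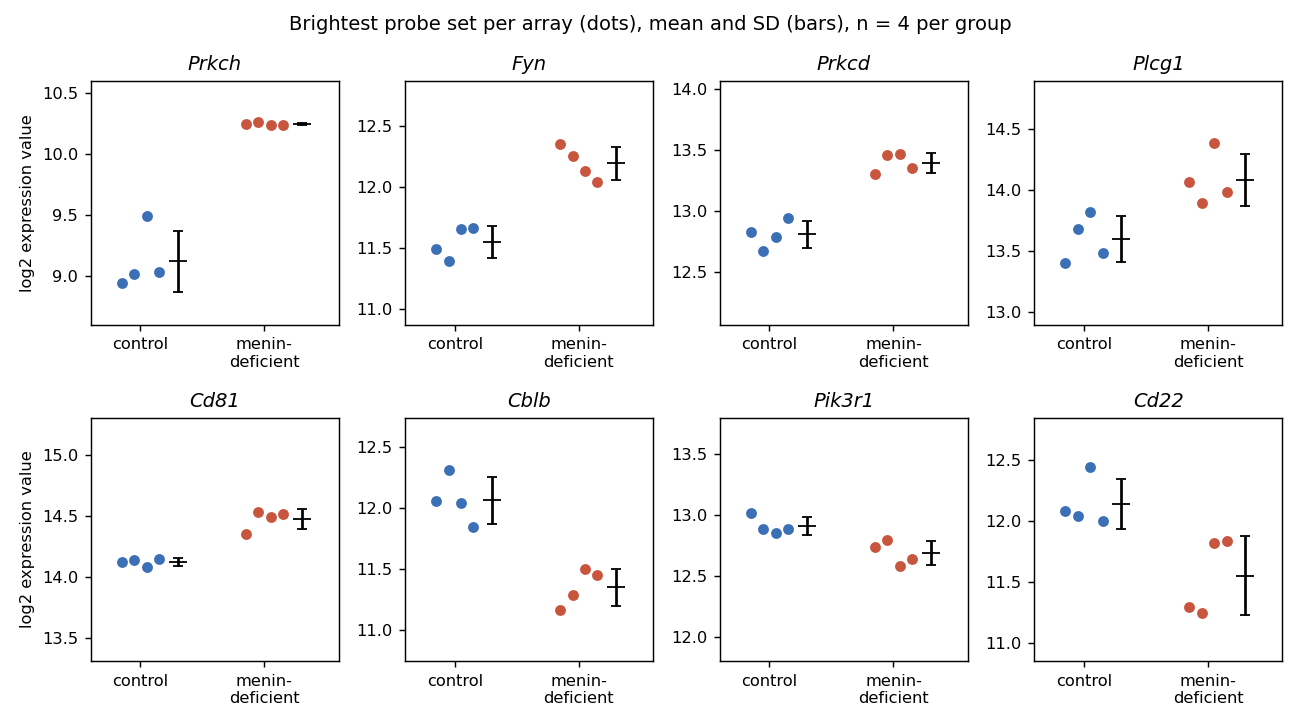
Log2 expression value (vertical axis, 2 units high in each panel) of the brightest probe set on each array for the 7 members called and for Cd22, with control arrays in blue, menin-deficient arrays in red, and mean and SD beside them (n = 4 each). In every panel shown the groups do not overlap, and the gap is widest for Prkch.

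No member of the Vav and Ras group passed the threshold. Vav1, Vav2 and Vav3, exchange factors that switch on Rac, differed by 0.15, -0.18 and 0.12. Rasgrp1 and Rasgrp3, which load Ras downstream of diacylglycerol, differed by -0.12 and 0.13, and Grb2 and Sos1, the adaptor and exchange factor of the other route to Ras, by 0.12 and 0.14. The intervals of all 7 crossed 0, the widest being that of Sos1 (-0.30 to 0.58). A dim Rasgrp1 probe set had groups that did not overlap, at least 4.72 in control and 3.74 to 4.54 in menin-deficient arrays (-0.61, adjusted p = 0.0623 with each probe set tested on its own). A dimmer Vav1 probe set differed by -0.23 and the dimmer Vav3 probe sets by 0.09 and 0.78, with overlapping groups and none past the threshold.

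In the PI3K group Pik3r1, the p85 alpha regulatory subunit, was slightly lower. Control arrays read 13.02, 12.88, 12.85 and 12.89, and menin-deficient arrays 12.74, 12.79, 12.58 and 12.64. These groups did not overlap, and the difference was -0.22 (SE 0.06, limma adjusted p = 0.0436), or -0.35 after centring. The call held under 6 of 19 alternatives. A second Pik3r1 probe set pointed the same way without overlap, with 8.47 to 8.80 in control and 8.25 to 8.44 in menin-deficient arrays (-0.28, adjusted p = 0.0597 with each probe set tested on its own). Another, tied to the same transcript record as the second, pointed the other way, also without overlap. It read 6.96 to 7.10 in control and 7.14 to 7.77 in menin-deficient arrays (0.34, adjusted p = 0.14 with each probe set tested on its own). A dim probe set of that record differed by 0.23 with overlapping groups.

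The probe sets of the catalytic subunits disagreed. For Pik3ca, p110 alpha, the brightest probe set differed by 0.25 and was not called (95% interval -0.06 to 0.56). A pair of its other probe sets fell by 0.61 and 0.68 (adjusted p = 0.0425 and 0.0302 with each tested on its own), among 15.8% of all tested probe sets called. The first of that pair read 9.98, 9.21, 9.68 and 9.47 in control and 8.98, 8.93, 8.88 and 9.11 in menin-deficient arrays, with no overlap. The second carries the suffix _x_at, which marks probes that can match other transcripts. A further probe set tied to the same record as this pair differed by -0.12. Another, nearly as bright as the brightest, read 11.75 to 12.19 in control and 11.34 to 11.83 in menin-deficient arrays and differed by -0.30 (adjusted p = 0.178). Of the 6 Pik3ca probe sets, 5 thus had a difference below 0 and the brightest alone had one above 0.

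For Pik3cd, the p110 delta subunit that predominates in lymphocytes, the brightest probe set was uneven, with control replicate 2 at 14.33 and the other control arrays at 12.74 to 13.18. It differed by -0.30 with a wide interval (-1.20 to 0.61). The next brightest rose by 0.59 (SE 0.13, adjusted p = 0.026 with each probe set tested on its own), from 11.52, 11.37, 11.83 and 11.87 in control to 12.13, 12.25, 12.41 and 12.14 in menin-deficient arrays. No array of one group reached into the other.

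Pik3ap1, which encodes the PI3K adaptor BCAP, split into 2 levels that did not follow genotype. Control replicate 4 and menin-deficient replicates 1 and 3 read 14.29, 14.41 and 14.43. The other 5 arrays read 11.75 to 12.10. A second, dim probe set read 2.25 to 3.97 and did not show that split. Dapp1, an adaptor recruited by the PI3K lipid product, differed by -0.17 on its brightest probe set and by 0.28 on the other, neither past the threshold.

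**Figure D3:**
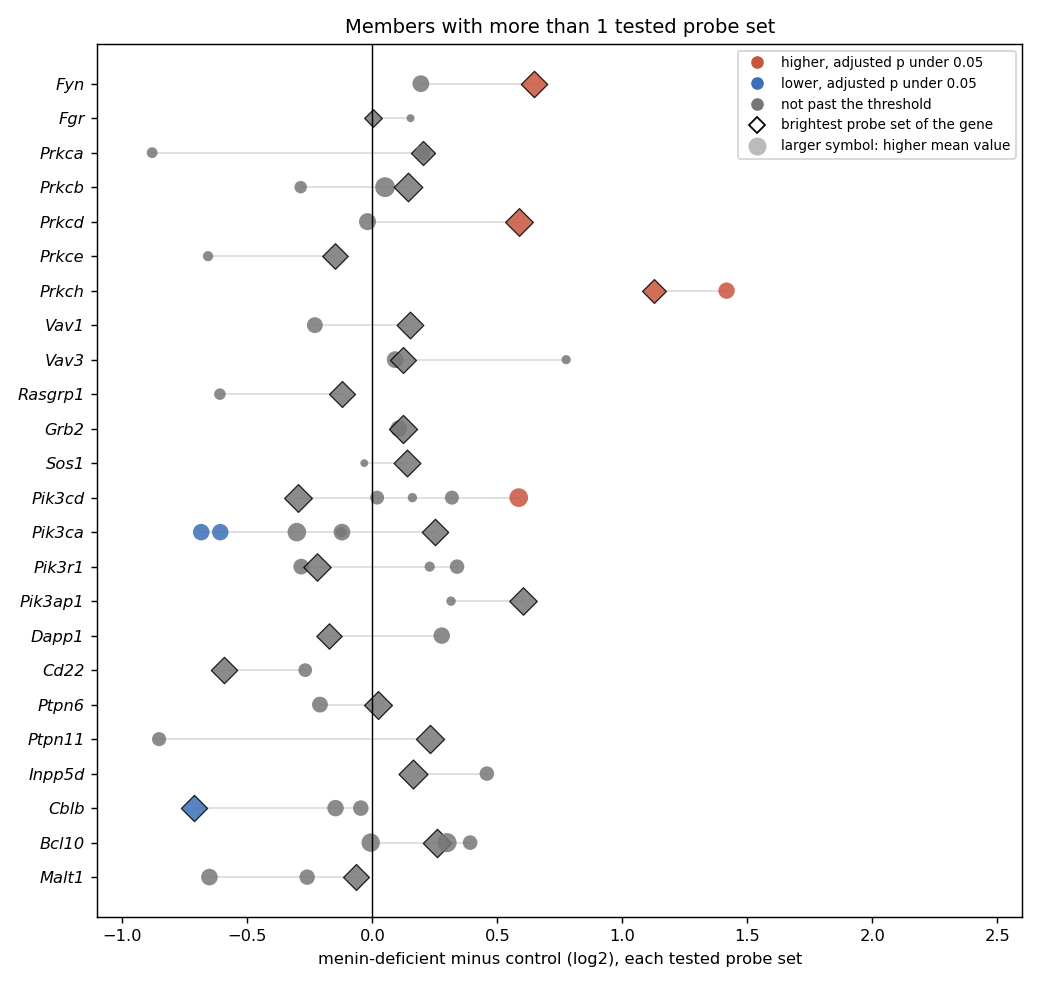
Difference between menin-deficient and control arrays (log2, horizontal axis) for each tested probe set of the 24 members with more than 1, with each probe set tested on its own; diamonds mark the brightest probe set and larger symbols a higher mean value. Both Prkch probe sets lie right of 1, while those of Pik3ca, Pik3cd and Prkcd spread across 0.

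In all, 75 of the 89 member probe sets passed the filter. The 14 others stayed under 2.5 on every array. With each probe set tested on its own, 6 were higher and 3 lower, against 10.8% and 5.01% of all 22200. They belonged to 7 genes: Fyn, Prkcd, Prkch (both probe sets), Pik3cd and Cd81 among the rises and Pik3ca and Cblb among the falls. The brightest probe sets of Plcg1 and Pik3r1 missed the threshold in that larger test (adjusted p = 0.0519 and 0.0544). All tested probe sets pointed the same way in 12 of the 24 members that had several.

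Of the coreceptor genes, Cd81, a tetraspanin of the cell surface, rose by a small step. Control arrays read 14.12, 14.14, 14.08 and 14.15, and menin-deficient arrays 14.35, 14.54, 14.49 and 14.52. The groups did not overlap, and the SD was 0.03 in control and 0.08 in menin-deficient arrays. The difference was 0.35 (SE 0.05, 1.28-fold, limma adjusted p = 0.00527), of which 0.23 remained after centring. Cr2, the complement receptor CD21 of mature B cells, was dim and variable (4.93 to 7.16 in control, 4.90 to 5.92 in menin-deficient arrays) and did not pass (-0.73, 95% interval -1.86 to 0.41).

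Among the restraining members, Cblb, a ubiquitin ligase that limits antigen receptor signalling, fell. Its brightest probe set read 12.05, 12.31, 12.04 and 11.84 in control and 11.17, 11.29, 11.50 and 11.45 in menin-deficient arrays. All menin-deficient arrays lay below the lowest control. The difference was -0.71 (SE 0.12, 1.64-fold, limma adjusted p = 0.00826), and -0.84 after centring. The 2 other Cblb probe sets differed by -0.15 and -0.05, with overlapping groups, and with the mean of all 3 the gene was not called (-0.30, adjusted p = 0.0815).

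Cd22, a sialic-acid-binding receptor that recruits SHP-1, lay just outside the threshold. Control arrays read 12.09, 12.04, 12.45 and 12.001, and menin-deficient arrays 11.30, 11.25, 11.82 and 11.84. The groups did not overlap, but the menin-deficient arrays were uneven, with replicates 1 and 2 lower than 3 and 4. The difference was -0.59 (SE 0.18, limma adjusted p = 0.0544), and -0.72 after centring (adjusted p = 0.0236). A dimmer Cd22 probe set differed by -0.27 with overlapping groups. Cd72, the other inhibitory receptor, differed by 0.16 (-0.16 to 0.49).

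The phosphatases and the adaptor Dok3 did not pass. Ptpn6, which encodes SHP-1, had the narrowest interval of this group, at 13.13 to 13.28 in control and 13.14 to 13.28 in menin-deficient arrays, a difference of 0.02 (95% interval -0.10 to 0.14). A dimmer Ptpn6 probe set, with the suffix _x_at, differed by -0.21, with groups that met at 8.655 (adjusted p = 0.165 with each probe set tested on its own). Ptpn11, which encodes SHP-2, read 13.11 to 13.62 in control and 13.65 to 13.70 in menin-deficient arrays, without overlap, and differed by 0.23 (adjusted p = 0.172). A dimmer Ptpn11 probe set differed by -0.85 (adjusted p = 0.133 with each probe set tested on its own). Inpp5d, which encodes SHIP-1, differed by 0.16 (-0.03 to 0.36). A dimmer Inpp5d probe set differed by 0.46 without overlap (adjusted p = 0.0902 with each probe set tested on its own). Dok3, an adaptor that recruits SHIP-1, differed by -0.32 (-0.70 to 0.06), and by -0.46 without control replicate 3 (limma adjusted p = 0.0377). It was called under 2 of 19 alternatives.

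In the NF-kB arm Bcl10, which joins Malt1 downstream of protein kinase C beta, read 13.52 to 13.61 in control and 13.59 to 13.95 in menin-deficient arrays. It differed by 0.26 (adjusted p = 0.0664), and 0.13 of that remained after centring. Without menin-deficient replicate 1 its difference was 0.33 (limma adjusted p = 0.011), and Bcl10 was called under 3 of 19 alternatives. Dimmer Bcl10 probe sets tied to the same transcript record differed by 0.30 and 0.39 (adjusted p = 0.0667 and 0.217 with each probe set tested on its own). A Bcl10 probe set of another record differed by -0.01. Malt1, the paracaspase, differed by -0.06 and Bank1, a scaffold of Lyn and the calcium channel IP3R, by -0.19, with intervals that crossed 0. The dimmer Malt1 probe sets differed by -0.65 and -0.26 with overlapping groups (adjusted p = 0.125 and 0.755 with each probe set tested on its own).

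Windows upstream of some called members are shown for comparison in sequence, those of Fyn, Cd81 and Plcg1, which rose, and of Cblb, which fell. RefSeq (GRCm38.p6) windows of 250 bases before the start were listed for 31 members, in 40 windows. Of the called members, Fyn, Cd81, Plcg1 and Cblb had a single window each. Prkcd and Pik3r1 had more than a single window and Prkch had none, and these members are not shown. Capitals mark, on either strand, GGGCGG (GC box), CCGGAAG (ETS), TGTGGT (RUNX), CAGGTG (an E-box bound by E2A), the EBF1 palindrome and TGACAG (MEIS1), and matches could overlap.
Fyn, chr10:39369549-39369798, plus strand: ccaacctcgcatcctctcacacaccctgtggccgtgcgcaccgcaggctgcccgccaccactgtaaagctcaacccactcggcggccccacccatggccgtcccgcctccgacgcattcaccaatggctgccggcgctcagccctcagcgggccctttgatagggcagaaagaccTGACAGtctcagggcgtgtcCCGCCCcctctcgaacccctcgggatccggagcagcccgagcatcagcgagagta
Cd81, chr7:143052500-143052749, plus strand: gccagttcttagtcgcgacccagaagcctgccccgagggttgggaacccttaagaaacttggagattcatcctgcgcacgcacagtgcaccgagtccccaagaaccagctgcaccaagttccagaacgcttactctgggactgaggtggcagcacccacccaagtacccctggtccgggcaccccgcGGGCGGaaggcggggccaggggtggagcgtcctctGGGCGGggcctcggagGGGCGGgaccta
Plcg1, chr2:160731060-160731309, plus strand: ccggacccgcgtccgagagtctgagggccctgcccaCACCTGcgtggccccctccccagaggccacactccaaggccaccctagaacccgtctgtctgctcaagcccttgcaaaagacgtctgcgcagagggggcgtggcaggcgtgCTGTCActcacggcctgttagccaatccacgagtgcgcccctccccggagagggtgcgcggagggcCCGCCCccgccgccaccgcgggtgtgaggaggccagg
Cblb, chr16:52031299-52031548, plus strand: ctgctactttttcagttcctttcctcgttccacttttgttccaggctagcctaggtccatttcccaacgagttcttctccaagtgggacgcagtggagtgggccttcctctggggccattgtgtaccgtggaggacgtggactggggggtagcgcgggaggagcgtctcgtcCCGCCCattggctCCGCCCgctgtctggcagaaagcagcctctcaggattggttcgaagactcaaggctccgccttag

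Each of these 4 windows held at least 1 GC box, Cd81 with 3, and so did 55.0% of the member windows and 32.7% of all 32851 windows. Fyn and Plcg1 held a MEIS1 match each, as did 20.0% of member windows and 15.9% of all. Plcg1 also held an E-box match, as did 32.5% and 17.2%. The ETS and RUNX letters were each found in 2 member windows (6.91% and 14.0% of all windows) and the EBF1 palindrome in 2 (0.779% of all). CG dinucleotides numbered 21 upstream of Fyn, 16 of Cd81, 21 of Plcg1 and 14 of Cblb, against a median of 10 in member windows and 6 in all. A match describes letters only. The windows shown, of 3 of the 5 members that rose and of Cblb, which fell, all hold a GC box. Of the windows of Prkcd and Pik3r1, which are not shown, 1 of each gene held 4 GC boxes and the other held 0.

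Other genes of the pathway were taken from a list of 105, of which 90 were on the array by name and all 90 were tested. Of these 17 rose and 4 fell, 23.3% against 21.3% of all tested genes. The median difference was 0.14 against 0.11. After centring 7 were higher and 7 lower. Nfatc2, a calcium-dependent transcription factor, rose most (2.58-fold, limma adjusted p = 0.0175), from 5.70, 6.64, 6.37 and 5.53 in control to 7.43, 7.18, 7.89 and 7.23 in menin-deficient arrays. Cd5, a surface receptor that dampens antigen receptor signals, rose 2.52-fold (adjusted p = 0.00493), with 6.41 to 7.25 in control and 7.85 to 8.22 in menin-deficient arrays. Prkcq, protein kinase C theta, rose 1.92-fold (adjusted p = 0.00252), with 9.65 to 9.85 in control and 10.42 to 10.84 in menin-deficient arrays. In these 3 genes the groups did not overlap.

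The other rises of the list were smaller, from 1.22-fold to 1.68-fold. Lax1, an adaptor that restrains lymphocyte receptors, rose 1.68-fold, and Dgka, a kinase that removes diacylglycerol, rose 1.53-fold. Orai2, a calcium channel subunit, Prkd2, Dok2, Lat2, Casp8, Rasal3, Blnk, Itpr3, Traf6, Ppp3cb, Rac1 and Ube2n made up the remainder. Of these smaller rises, only Lax1, Orai2, Prkd2 and Casp8 were still called after centring (limma adjusted p = 0.0342, 0.0238, 0.0407 and 0.0298). The others, Dgka among them (adjusted p = 0.0520), then missed the threshold. Blnk, the scaffold that joins Syk to phospholipase C gamma, rose 1.31-fold (adjusted p = 0.0466), and its difference of 0.26 after centring did not pass (adjusted p = 0.127). The falls were in Sos2 (1.67-fold, adjusted p = 0.00519), a close relative of Sos1, in Dgkz (1.48-fold), another diacylglycerol kinase, in Sh3bp2 (1.36-fold) and in Tab2 (1.30-fold).

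The proximal core of the receptor did not pass apart from Blnk, Lat2 and Sh3bp2, which makes 3 of 14. That share, 21.4%, lay near the 21.3% of all tested genes. After centring 0 of the 14 were higher and 1, Sh3bp2, was lower. Cd79a and Cd79b, the receptor's signalling chains, differed by 0.18 and 0.09, Ighm by 0.14, and the kinases Syk, Btk and Tec by -0.16, -0.04 and 0.40. Syk was 13.76 to 14.09 in control and 13.38 to 13.99 in menin-deficient arrays.

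Some of the genes that rose are also known from T and NK cells, Fyn, Prkch, Prkcq and Cd5 among them, so the marker lists of those cells belong beside them. Of 14 T-cell markers on the array 6 rose among 9 tested, Cd5 being 1 of them, against 16.2% of all tested genes. The lists were chosen with earlier results of these data known, so such shares are not independent of them. The summed level of the list, before centring, was 65.9 to 69.4 in control and 76.8 to 79.2 in menin-deficient arrays. Of the CD3 and coreceptor genes, Cd3e, Cd3d, Cd4 and Cd8b1 lay at 2.08 to 2.18 on every array, as did Trat1. Cd3g rose, with 3.63 to 4.43 in control and 4.52 to 4.85 in menin-deficient arrays (limma adjusted p = 0.0309), and so did Cd247, with 4.23 to 5.15 and 5.62 to 6.63 (adjusted p = 0.0341). Cd28 rose, with at most 2.51 in control and 3.17 to 3.66 in menin-deficient arrays (adjusted p = 0.00232), and Cd8a read 4.99 to 5.84 and 5.85 to 5.91 without passing. Thy1 rose, with 6.53 to 7.92 in control and 9.48 to 10.18 in menin-deficient arrays, and so did Lat, with 8.47 to 9.31 and 10.26 to 10.93.

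Of 11 NK-cell markers 3 rose, and the sum was 56.8 to 59.8 in control and 64.2 to 73.7 in menin-deficient arrays, with Il2rb at 2.08 on every array. The highest NK sum was that of menin-deficient replicate 3, and the sums of the 3 other menin-deficient arrays also lay above every control. Monocyte and macrophage markers rose in 4 of 11 cases (sums 87.6 to 91.6 and 87.4 to 100.6), neutrophil markers in 0 of 10 tested (97.3 to 101.9 and 99.1 to 109.3), and plasmacytoid dendritic cell markers in 2 of 11 (76.9 to 78.5 and 81.1 to 84.3). Mature B-cell markers, among them Cr2 and Bank1, rose in 2 of 11 cases (99.3 to 108.0 and 101.9 to 107.9). Plasma cell markers fell in 2 of 5 tested cases (51.0 to 54.4 and 49.1 to 50.5), erythroid markers in 0 of 5 and stem and multipotent progenitor markers in 1 of 6. Of all tested genes 16.2% were higher and 5.17% lower. The sums were taken before centring, which lowered the difference of each tested gene by 0.13. The part of these cells in the member results was not tested.

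**Figure D4:**
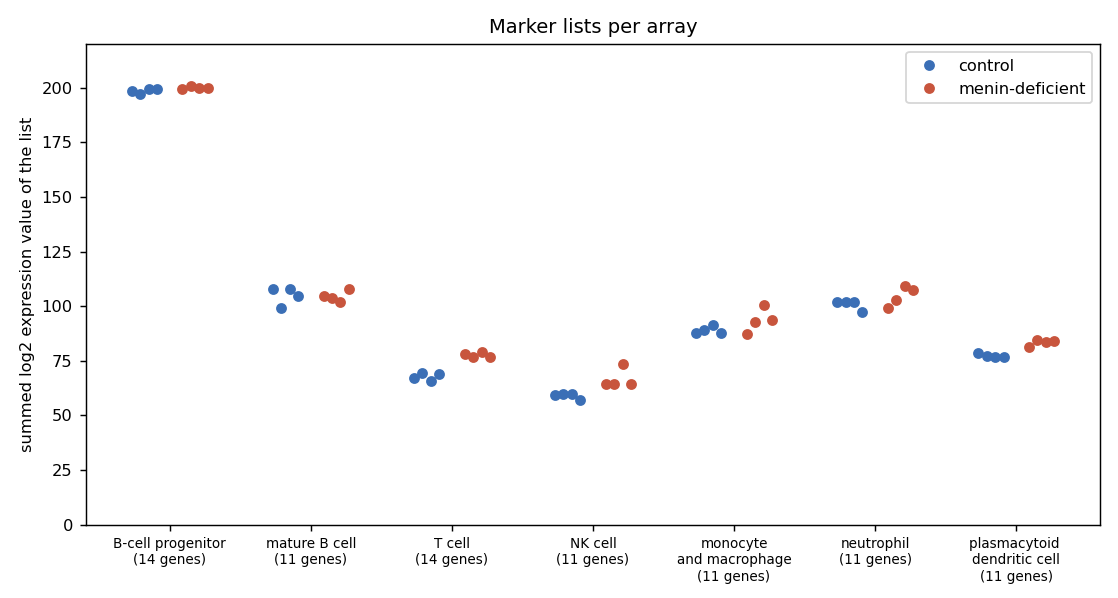
Summed log2 expression value (vertical axis, from 0) of the brightest probe set of each gene in 7 marker lists, 1 dot per array, control in blue and menin-deficient in red. The B-cell progenitor sums are 197.2 to 199.5 in control and 199.3 to 200.7 in menin-deficient arrays. The T-cell sums are 65.9 to 69.4 in control and 76.8 to 79.2 in menin-deficient arrays.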

How the data were processed

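RNA of sorted pro-B cells was amplified once, labelled with biotin and hybridised, per the labels' protocols. The range of the deposited values fits log2. MAS5 and GCRMA stand in the submitters' processing notes, without versions; the one behind these log2 values is not stated there. Groups and replicate numbers came from the sample titles; the descriptions call the replicates biological. No 2 arrays held the same values.

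The platform annotation gives 1 symbol for 34945 of 45037 probe sets, several for 932 and none for 9160. Entrez identifiers of all 89 member probe sets gave the same RefSeq symbol. Probe sets above their array's 40th percentile (2.09 to 2.10, just above the lowest value) on at least 4 of 8 arrays were tested. The brightest by mean over all 8 stood for its gene. The test was limma's (version 3.58.1, under R 4.3.3; lmFit, then eBayes), without covariates, with Benjamini-Hochberg adjustment over all 11885 genes or, with each probe set tested on its own, all 22200 probe sets. The fit was tested on simulated data. The number of arrays limits the precision.

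Genes were described by role. All members are accounted for, called members with full values, and pathway genes where called or in the proximal core. Members and lists were chosen with earlier results of these data known. Members found were 35 of 36, and 31 had upstream windows.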

Additional observations from a re-analysis of the deposited data

Results flagged for a closer look

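In 3 of the 70 groups of 4 arrays examined, 2 for each tested member, a single array stood far from the others. Chance flags about 1 in 20 groups. Pik3ap1 read 14.3 in control replicate 4 and 11.7 to 12.1 in the other control arrays, and the menin-deficient arrays were split between the same levels. Plcg2 read 13.4 in control replicate 3 and 13.1 in the others. Inpp5d read 14.2 in menin-deficient replicate 1 and 14.4 in the others.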

How the results depend on the processing

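Prkch and Fyn were called in the same direction under all 19 alternatives, and Prkcd, Cd81 and Cblb under 18 each. Prkcd and Cblb lost the call with the mean of probe sets, and Cd81 after centring. Plcg1 was called under 8 and Pik3r1 under 6. Sex as a covariate was added after seeing the data and left 5 members called. The count of changed genes was 1673 without the filter, and 1410 to 2255 with 1 array left out (1410 without menin-deficient replicate 2, 1609 without control replicate 1). Members called numbered 5 to 7, member probe sets 6 to 12 and pathway genes 10 to 23 (10 without menin-deficient replicate 2, 13 without control replicate 1) in those fits. Member probe sets called were 14 with array weights and 18 at a threshold of 0.10. With the replicate number as a block 1328 genes, 6 members, 5 member probe sets and 9 pathway genes were called. Same-numbered arrays deviated from their group means with correlations of -0.11, -0.31, -0.17 and 0.05. These values show no pairing by number, but so few cannot settle whether arrays were paired.

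The sign turned in 27 cases, none of them past the threshold except that Pik3r1, which is called as reported, differed by 0.016 with the mean of probe sets. With quantile normalization Fgr differed by -0.10 and Ptpn6 by -0.030. After centring Fgr differed by -0.12, Vav3 by -0.0023, Grb2 by -0.0037 and Ptpn6 by -0.10. With the mean of probe sets Prkca differed by -0.16, Prkcb by -0.031, Vav1 by -0.040, Pik3cd by 0.16, Pik3ca by -0.27, Dapp1 by 0.053, Ptpn6 by -0.094 and Ptpn11 by -0.31. With array weights Fgr differed by -0.10, Pik3ap1 by -0.076 and Ptpn6 by -0.017, and with sex as a covariate Fgr by -0.0021. With 1 array left out Fgr differed by -0.28 to 0.17, Pik3cd by -0.50 to 0.051, Ptpn6 by -0.0032 to 0.054, Malt1 by -0.12 to 0.011 and Bank1 by -0.50 to 0.033. The cause was not tested.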
